A study of Mus musculus with 12 samples.

Results

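Deletion of Rab11a alone was compared with WT in RNA of whole mouse jejunum. The comparison took the 3 libraries of AKO mice and the 3 libraries of WT mice, and of the 23988 genes in the deposited table the 13133 described are those that reached 1 in 3 or more of these 6 libraries. A further count of 17598 genes had a value above 0 in at least 1 of the 6. At the edge of that filter lay Gm6484 and Il17d, whose third-highest value of 1.00 placed them just inside, and 2010016I18Rik and Bbs12, just outside at 0.987.

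The series measured 4 groups of 3 libraries by RNA-seq and asked, by its title, how RAB11A and RAB11B share a role in the spindle when tissue progenitor cells divide. AKO mice carried the genotype Rab11aL/L, VillinCreER+, a floxed Rab11a with a tamoxifen-inducible Cre driven by villin. WT mice were labelled WT, BKO mice Rab11b-/-, and DKO mice Rab11aL/L, Rab11b-/-, VillinCreER+. All 4 groups were adult mice given tamoxifen at 40 mg/kg, with jejunum taken 2 days later. Villin drives the Cre in the intestinal epithelium, while the lysate also held muscle, stroma, vessels and immune cells. Whether WT mice carried the floxed allele or the Cre is not in the labels, so Cre with tamoxifen and loss of Rab11a cannot be told apart. They do not say either that the numbered samples were separate animals, so the p-values measure the spread between these samples, which may be technical.

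Rab11 proteins are small GTPases of the recycling endosome. In polarised epithelium they carry membrane proteins back to the apical surface through effector proteins, the motor myosin Vb and the exocyst, and in dividing cells recycling endosomes also deliver cargo to spindle poles and the cleavage furrow. Rab11b is a close relative of Rab11a that most cells express, and Rab25 is the epithelial member of the family.

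The 6 libraries held 21.4 M to 29.8 M reads. Values are given in fpm, reads scaled by a size factor (a library summed to 0.934 M to 1.06 M), and 1 read was worth 0.0313 to 0.0439 fpm. Values of single libraries are listed in the order of replicates 1 to 3. A log2 change is the AKO mean minus the WT mean of log2(value + 1), with its standard error (SE) from limma, and it understates the change of low genes. Means carry the SD of n = 3 libraries per group. Calls were made with limma's two-sided test over all 13133 genes, where the Benjamini-Hochberg adjusted p had to be under 0.05. WT replicate 2 and AKO replicate 2 stood apart from the rest on the first principal component (43.1% of the variance), at 32.9 and -36.2, with the other 4 libraries between -7.23 and 11.03. Xist was at 158 in WT replicate 1 and 223 in AKO replicate 2 and at most 0.157 in the other 4, so each group held 1 library with Xist and 2 with transcripts of the Y chromosome. Sex is not in the labels used here.

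Rab11a was the gene that the deletion targets, and it fell. Rab11a was at 182, 188 and 188 in WT and at 48.9, 67.2 and 62.0 in AKO. No AKO library reached the lowest WT library. The mean fell by 68.1%, from 186 ± 3.87 to 59.4 ± 9.43 (SD, n = 3 each), a log2 change of -1.64 ± 0.12 with a 95% interval of -1.93 to -1.35 (limma, adjusted p = 0.0419). In the other groups Rab11a was at 199.8, 215 and 275 in BKO and at 109.7, 96.0 and 112 in DKO. Every AKO library lay below every DKO library, although both genotypes carry the same floxed allele and Cre. In bulk RNA, fewer cells of a type and less RNA per cell cannot be told apart. The call was lost when any WT library or AKO replicate 3 was left out, with an adjusted p of 0.466, 0.194 and 0.263 without WT replicate 1, 2 or 3 and 0.184 without AKO replicate 3. It held without AKO replicate 1 (0.0223) or 2 (0.0146). Over all 22 fits, some of which cannot alter it, the log2 change lay between -1.74 and -1.51. With the spread estimated from all 12 libraries the adjusted p was 0.00352, while the call was also lost with no filter on low values (0.0910), with a replicate block (0.444) and with a term for Xist (0.0851).

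Rab11b, the close relative of Rab11a, differed by less than the spread between libraries. Rab11b was at 119, 119.5 and 110.3 in WT and at 116, 116 and 104 in AKO. The groups overlapped, and the log2 change was -0.05 ± 0.08 with an interval of -0.24 to 0.13 (limma, adjusted p = 0.9996). Rab25 also overlapped between the groups. Rab25 was at 88.1, 76.9 and 87.0 in WT and at 86.8, 79.8 and 83.9 in AKO. Its log2 change was -0.01 ± 0.08 with an interval of -0.21 to 0.19, near 0 and with a sign that turned under several settings. Both intervals lay within -0.5 to 0.5.

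**Figure D1:**
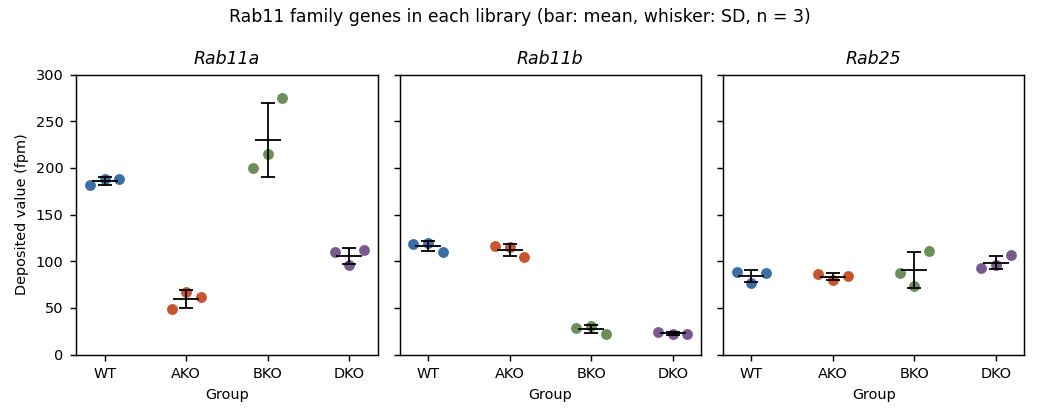
Deposited values (fpm, linear axis from 0) of Rab11a, Rab11b and Rab25 in the 3 libraries of each of the 4 groups, with the mean as a bar and the SD as whiskers. The 3 AKO libraries hold Rab11a at 48.9 to 67.2, below the WT libraries at 182 to 188 and the DKO libraries at 96.0 to 112, while Rab11b and Rab25 overlap between WT and AKO.

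The coding sequences of Rab11a and Rab11b are alike, so the sequences are shown to say how far reads of one could be counted for the other. The first 90 coding bases of GENCODE M21 transcripts Rab11a-208 and Rab11b-201 are given, with capitals at the 16 positions where they differ.
Rab11a: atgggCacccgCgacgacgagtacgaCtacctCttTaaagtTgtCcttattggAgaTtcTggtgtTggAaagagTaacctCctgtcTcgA
Rab11b: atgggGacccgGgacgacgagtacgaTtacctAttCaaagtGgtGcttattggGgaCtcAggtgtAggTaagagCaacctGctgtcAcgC
The other 74 bases were the same, and over the whole coding sequences (651 and 657 bases) the longest shared run was 14 bases. Of the 2287 windows of 50 bases in Rab11a-208, 0 were found in a Rab11b or Rab25 transcript and 58 (2.54%) in another gene, Gm47308. The genes next to Rab11a were read as a check on the locus. Of the 40 annotated genes nearest to it in the RefSeq order (GRCm38.p6, 20 on each side), 21 were in the table and 13 were tested. None was called, and their log2 changes ran from -0.35 to 0.17 with a median of 0.00. Dpp8 was the 1 of these 13 with all AKO libraries above all WT libraries, which held for 3.67% of all tested genes. For 0 of the 13 were all AKO libraries below all WT libraries, against 4.84% of all tested genes.

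Across all 13133 genes, Rab11a was the only one called (0 higher and 1 lower, 0.00761%). The next smallest adjusted p values were 0.322 for Ppapdc2 and 0.404 for BC064078, and every other gene was at 0.9996 or more. An unadjusted p under 0.05 was reached by 382 genes (2.91%), by 891 without AKO replicate 2 and by 251 without WT replicate 2. Leaving out AKO replicate 2 also brought the called genes to 3, the others being Rps27 and Rps27rt, without AKO replicate 1 Gp1bb was called beside Rab11a, and without AKO replicate 3 Hba-a2 was called in place of Rab11a. DESeq2 on the recovered reads called 7 genes and edgeR 1. All 3 AKO libraries lay above all 3 WT libraries for 482 genes (3.67%) and below for 636 (4.84%). That split turned with the scaling: with values scaled by total reads it was 782 above and 305 below. The median log2 change was -0.01, and 53.3% of genes were below 0.

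The libraries bounded most genes well. The 95% interval lay within a log2 change of -1 to 1 for 12045 genes (91.7%) and within -0.5 to 0.5 for 8063 (61.4%). The median distance from the estimate to the end of its interval was 0.26 for genes with a mean of at least 100 and 0.43 for genes with a mean from 2 to 10. In simulated counts with each gene's spread taken from these libraries, limma called 64% of 50 genes changed by a log2 value of 1. It called 94% of those changed by 2 and 6% of those changed by 0.5. The changed genes were picked among those with a mean of at least 2, so lower genes were not tried. They were changed together and drawn independently, without shifts shared across a library, so the shares may overstate what these libraries can call. A log2 change of 0.5 was therefore mostly not detectable gene by gene at this number of libraries. Larger changes could be missed too: BC064078, at 1.43 ± 0.18, was not called. Only 55 genes had a log2 change of at least 1 in size, 15 higher and 40 lower, and 12 of these 55 had no overlap between the groups.

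**Figure D2:**
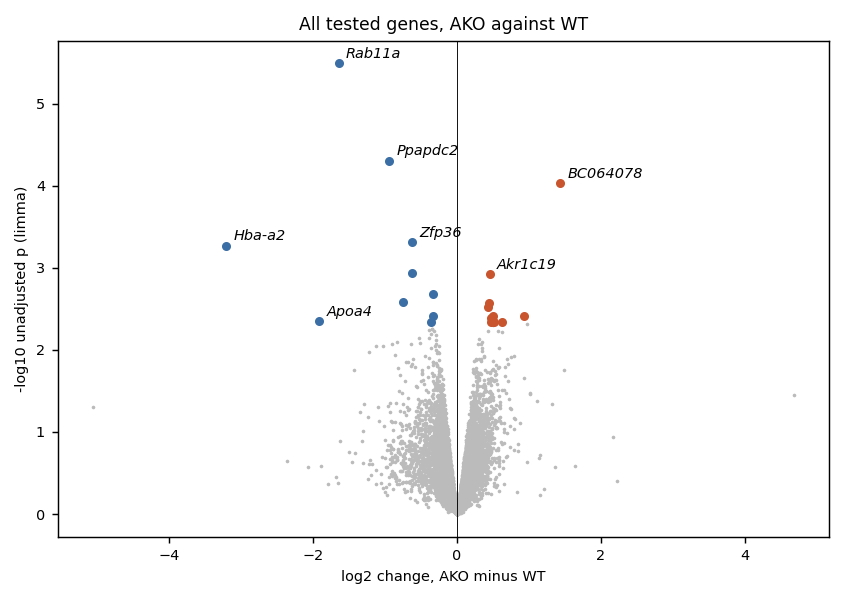
Each of the 13133 genes by its log2 change (AKO minus WT, x axis) and the -log10 of its unadjusted limma p (y axis), with genes named by rule coloured, higher in orange and lower in blue. Rab11a lies alone at the top at -1.64, and Ppapdc2 (-0.95) and BC064078 (1.43) come next.

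Among genes lower in AKO, the nearest to a call after Rab11a was Ppapdc2, now named Plpp6, a phosphatase that acts on isoprenoid diphosphates such as presqualene diphosphate. Ppapdc2 was at 105, 96.6 and 91.7 in WT and at 45.8, 57.1 and 48.6 in AKO. Each AKO library lay well below each WT library, and the log2 change was -0.95 ± 0.11 with an interval of -1.20 to -0.69 (limma, adjusted p = 0.322). DESeq2 called it (adjusted p = 1.06e-09), as did limma with sample quality weights (adjusted p = 0.0232). In BKO it was at 101, 59.9 and 64.2 and in DKO at 31.5, 54.0 and 51.8.

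Zfp36 encodes tristetraprolin, which destabilises mRNAs of inflammatory and immediate early genes. Zfp36 was at 148, 129.7 and 127 in WT and at 97.0, 83.5 and 81.7 in AKO. The groups did not overlap, with a log2 change of -0.62 ± 0.10, and the gene was called by DESeq2 (adjusted p = 0.00152) but not by limma. Ddit4 (REDD1), a stress-induced inhibitor of mTORC1, was lower in value in every AKO library. Ddit4 was at 33.0, 48.6 and 40.0 in WT and at 24.6, 20.1 and 25.9 in AKO. Deptor, which also inhibits mTOR complexes, was higher in value in every AKO library. Deptor was at 80.8, 79.5 and 97.1 in WT and at 111, 119 and 117 in AKO. Their log2 changes were -0.75 ± 0.16 and 0.43 ± 0.10, neither called.

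Apoa4, an apolipoprotein of chylomicrons made by enterocytes during fat absorption, varied widely within WT. Apoa4 was at 252, 545 and 158 in WT and at 47.8, 94.7 and 86.7 in AKO. The highest AKO library still lay below the lowest WT library, and the log2 change was -1.92 ± 0.46. Hba-a2, an alpha globin of red blood cells, stood lower in all AKO libraries. Hba-a2 was at 21.9, 19.1 and 16.0 in WT and at 0.313, 0.389 and 4.43 in AKO. Its log2 change of -3.21 ± 0.53 was not called, and without AKO replicate 3 it was -3.88 and called (limma, adjusted p = 0.0116). The beta globin Hbb-b1, however, overlapped. Hbb-b1 was at 15.7, 12.7 and 10.6 in WT and at 0.157, 20.5 and 2.59 in AKO. AKO replicate 2, which held little Hba-a2, held the most Hbb-b1, and reads can be shared among near-identical globin genes.

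The other genes named in this direction were each without overlap and none was called. Eepd1, of the endonuclease-exonuclease-phosphatase family, had a log2 change of -0.63 ± 0.12. H2-DMa, which loads peptides on MHC class II, was at -0.34 ± 0.07, and Ndufs7, a subunit of respiratory complex I, at -0.33 ± 0.08.

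Among genes higher in AKO without overlap, BC064078 had the largest log2 change. BC064078 was at 2.61, 3.11 and 1.90 in WT and at 7.64, 8.01 and 9.82 in AKO. All AKO libraries lay above all WT libraries, with a log2 change of 1.43 ± 0.18 (limma, adjusted p = 0.404), and DESeq2 called it (adjusted p = 1.47e-06). Ccl21a, a chemokine that lymphatic vessels and stroma make to draw cells with CCR7, was also higher in value in each AKO library. Ccl21a was at 9.42, 16.1 and 10.8 in WT and at 25.9, 18.8 and 26.4 in AKO. Its log2 change was 0.93 ± 0.22, not called.

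Akr1c19, an aldo-keto reductase, had the smallest p after BC064078 among higher genes without overlap. Akr1c19 was at 83.8, 97.0 and 92.3 in WT and at 133, 123 and 119 in AKO. Slc16a10, a transporter of aromatic amino acids, was also higher in value in each AKO library. Slc16a10 was at 47.3, 54.9 and 52.2 in WT and at 73.7, 82.8 and 63.5 in AKO. The remaining genes named in this direction were Ptprg, a receptor tyrosine phosphatase (0.44 ± 0.10), Stxbp6, which binds SNAREs (0.47 ± 0.11), Ltbp4, which binds latent TGF-beta (0.47 ± 0.11), the kinase Hunk (0.52 ± 0.13) and the complement regulator C4bp (0.63 ± 0.15). None of these was called, and all had groups without overlap, which is how they were chosen.

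**Figure D3:**
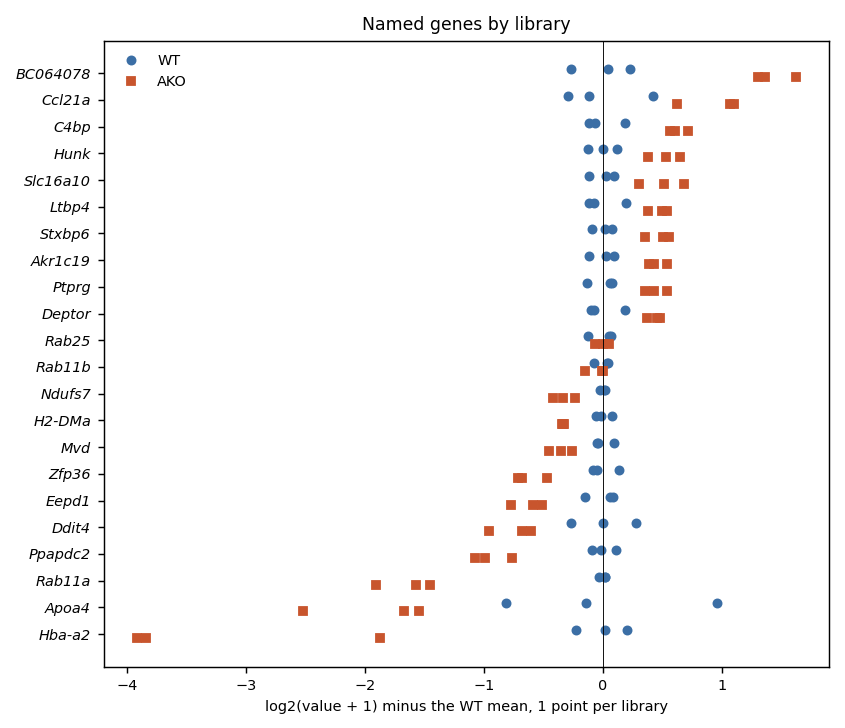
log2(value + 1) of each named gene in each library, minus the WT mean of that gene (x axis), with WT as blue circles and AKO as orange squares. Rab11a, Ppapdc2 and BC064078 show tight libraries well apart, Apoa4 and Hba-a2 wide ones, and Rab11b and Rab25 overlap at 0.

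A pair of further genes, outside the filter but called by DESeq2, was present in one group alone. Pik3c2g, a class II phosphoinositide 3-kinase, was at 0 in all WT libraries and at 0.814, 1.52 and 0.745 in AKO (DESeq2 adjusted p = 0.00142). Tmem92 was at 0.652, 0.768 and 0.450 in WT and at 0 in all AKO libraries (DESeq2 adjusted p = 0.0404). These levels rest on few reads, since 3 reads corresponded to 0.0939 to 0.132 in these libraries.

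Genes that work with Rab11a showed no call. Of 20 tested Rab11 effectors and regulators, 1 lay above and 1 below WT without overlap (5% each), close to the 3.67% and 4.84% of all genes. The list median was 0.04, and over all settings tried, single libraries left out among them, it ran from -0.01 to 0.08. Where a range of a list median is given from here on, it is over the same settings. Rab11fip1, a Rab11 effector of recycling endosomes, was the one above. Rab11fip1 was at 186, 184 and 188 in WT and at 217, 232 and 209.9 in AKO. Rab8a, the GTPase that follows Rab11 on the way to the apical surface, was the one below. Rab8a was at 209, 208 and 209.7 in WT and at 176, 205 and 174 in AKO. Its AKO replicate 2 lay close to WT. Of 17 genes of apical SNAREs, exocyst and polarity, the exocyst subunit Exoc4 alone stood above WT without overlap (5.88% against 3.67%), at 0.26 ± 0.09.

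Of 22 endosome sorting genes 1 lay above (4.55% against 3.67%) and 2 below WT (9.09% against 4.84%) without overlap. Rab5c, a GTPase of early endosomes, was at -0.19 ± 0.08. Vps26a, a subunit of the retromer, was lower in value, with a log2 change of -0.79 ± 0.26. Vps26a was at 113, 110.3 and 108 in WT and at 101, 52.2 and 48.2 in AKO. AKO replicates 2 and 3 held less than any WT library by a wide margin and AKO replicate 1 lay near WT, so the groups were apart only narrowly. In BKO Vps26a was at 49.4, 115 and 116 and in DKO at 101, 97.4 and 114, so BKO replicate 1 was as low and no DKO library was. Among the 48 other Rab genes tested none was called, their log2 changes ran from -0.21 (Rab20) to 0.34 (Rab30), and 36 had intervals within -0.5 to 0.5.

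Genes of the mitotic spindle, the subject of the series title, showed 0 calls among 30 tested members, with a median of 0.03. The groups did not overlap for 2 members, both higher (6.67% against 3.67% of all genes). Kif4, a chromokinesin of the central spindle, was one. Kif4 was at 19.0, 18.2 and 15.3 in WT and at 20.1, 23.7 and 24.99 in AKO. Anln, the contractile ring protein anillin, was the other, with a log2 change of 0.20 ± 0.10. Their libraries split within AKO: the list mean was 0.28 above the WT mean in AKO replicate 3 and 0.10 in replicate 1 but 0.25 below it in replicate 2. The median was 0.22 without AKO replicate 2 and -0.13 without AKO replicate 3, so its sign turned with the library left out. All 30 intervals lay within -1 to 1.

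Of 14 cyclins and proliferation markers and 20 DNA replication genes, 0 were called and 0 were without overlap. The medians of these lists were -0.03 (range -0.14 to 0.17) and -0.07 (-0.20 to 0.25), so both signs turned with the setting. Pcna, the replication clamp, was at a log2 change of -0.15 ± 0.10. Of 17 p53 targets, 4 lay above WT without overlap, 23.5% against 3.67% of all genes, and 0 were called. Phlda3 encodes an inhibitor of Akt, Plk2 a kinase and Ccng1 cyclin G1. Phlda3 was at 2.73, 1.98 and 2.39 in WT and at 4.73, 3.58 and 3.42 in AKO. Plk2 was at 4.08, 5.05 and 5.29 in WT and at 7.82, 17.5 and 7.10 in AKO. Ccng1 was at 109.7, 93.4 and 112 in WT and at 123, 229.9 and 139 in AKO. For Plk2 and Ccng1 AKO replicate 2 stood far above the other AKO libraries, which lay just above WT. The fourth was Sesn2, a stress-induced sestrin, at 0.29 ± 0.11, and the list median was 0.06 (range 0.01 to 0.11).

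Crypt and lineage genes likewise had 0 calls. Of 17 stem cell and Wnt target genes 0 were without overlap, and the Wnt target Axin2 was at 0.25 ± 0.19. Of 14 Paneth cell genes 14 were lower in value but 0 without overlap, with a median of -0.22, or -0.08 without WT replicate 2 and -0.42 without WT replicate 1. Lyz1, the Paneth lysozyme, was the most abundant of them. Lyz1 was at 1276, 2537 and 2312 in WT and at 1703, 1825 and 1271 in AKO. WT replicate 1 lay at the level of the AKO libraries. The Paneth list lay 0.39 below the WT mean in WT replicate 1 and 0.38 above it in WT replicate 2. For goblet (13), tuft (8) and enteroendocrine (17) genes the medians were 0.02 (range -0.13 to 0.13), 0.09 (-0.01 to 0.16) and 0.12 (0.03 to 0.31). The lowest and highest enteroendocrine medians came without AKO replicate 2 and without AKO replicate 3, and the signs of the goblet and tuft medians turned. Tph1, the serotonin synthesis enzyme of enterochromaffin cells, was the 1 gene among the enteroendocrine genes above WT without overlap (5.88% against 3.67%). Tph1 was at 1.10, 1.79 and 1.97 in WT and at 3.32, 4.51 and 2.19 in AKO.

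Cholesterol synthesis held the largest share of genes below WT without overlap among pathway lists of 10 or more tested genes. Cells make cholesterol from acetyl-CoA through mevalonate, isoprenoid diphosphates, squalene and lanosterol, and the factor SREBP2 drives these genes when sterols are scarce. Of 23 tested genes 0 were called, 20 were lower in value and 9 were below WT without overlap, 39.1% against 4.84% of all genes. The list median was -0.16, against -0.01 for all genes.

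The 9 genes ran along the pathway from the mevalonate diphosphate decarboxylase Mvd to the sterol isomerase Ebp. Fdps makes farnesyl diphosphate and Fdft1 is squalene synthase. Mvd was at 73.5, 66.8 and 66.7 in WT and at 53.7, 57.4 and 50.1 in AKO. Fdps was at 199, 229.9 and 181 in WT and at 167, 152 and 160.1 in AKO. Fdft1 was at 220.3, 223 and 220.1 in WT and at 167, 193 and 163 in AKO. Their log2 changes were -0.36 ± 0.09, -0.34 ± 0.10 and -0.35 ± 0.09, and each AKO library lay below each WT library. Sqle is squalene epoxidase, Lss lanosterol synthase and Cyp51 the demethylase of lanosterol. Sqle was at 335, 377 and 370.0 in WT and at 294, 291 and 320.4 in AKO. Lss was at 68.1, 74.2 and 64.5 in WT and at 57.2, 53.6 and 51.2 in AKO. Cyp51 was at 381, 372 and 360.3 in WT and at 262, 342 and 284 in AKO. The gap was narrow for Cyp51 in AKO replicate 2 and wider in the other AKO libraries. Nsdhl, Hsd17b7 and Ebp, which act in late steps, had log2 changes of -0.21 ± 0.08, -0.24 ± 0.10 and -0.16 ± 0.07.

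The other 14 tested genes overlapped between the groups. Srebf2, which encodes SREBP2, was among them at -0.10 ± 0.08. Hmgcs1 was listed at 0 in all 6 libraries. AKO replicate 2 departed from the other AKO libraries here: the list mean was 0.23 and 0.27 below the WT mean in AKO replicates 1 and 3 and 0.01 below it in AKO replicate 2. The median ran from -0.25 to -0.12 over all settings, and with values scaled by total reads 6 genes were without overlap. The epithelial markers described further on were also lower in value in AKO, and their part in these differences was not tested.

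**Figure D4:**
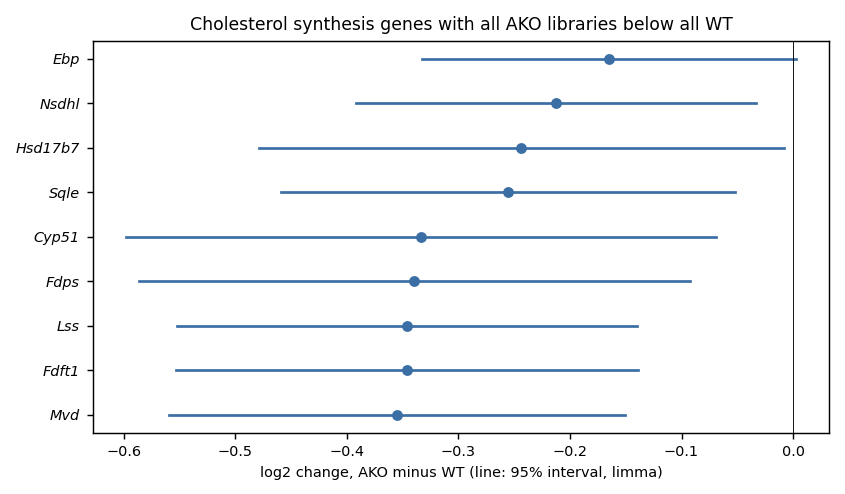
log2 change (AKO minus WT, x axis) of the 9 cholesterol synthesis genes whose AKO libraries all lay below all WT libraries, with the 95% interval from limma as a line. The changes run from -0.36 for Mvd to -0.16 for Ebp, and the intervals of all but Ebp end below 0.

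Promoter bases are shown for 3 of these 9 genes, since most of the list was lower in value. Each line gives the 120 bases before the RefSeq start (GRCm38.p6), with CCAAT or its reverse complement ATTGG in capitals: Mvd at chr8:122443423-122443542 on the minus strand, Lss at chr10:76531485-76531604 on the plus strand and Hsd17b7 at chr1:169969206-169969325 on the minus strand.
Mvd: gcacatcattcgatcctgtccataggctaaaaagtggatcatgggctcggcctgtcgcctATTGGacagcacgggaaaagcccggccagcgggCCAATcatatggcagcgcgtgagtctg
Lss: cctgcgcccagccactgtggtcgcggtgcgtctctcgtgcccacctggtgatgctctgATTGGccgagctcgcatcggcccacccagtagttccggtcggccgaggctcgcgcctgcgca
Hsd17b7: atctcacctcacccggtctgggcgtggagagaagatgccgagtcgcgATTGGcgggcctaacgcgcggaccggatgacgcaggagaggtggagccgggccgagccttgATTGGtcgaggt
Promoters of 300 bases (250 before to 50 after the start) were searched on both strands for CCAAT, the core of the NF-Y element, and for TCACNCCAC, a form of the sterol regulatory element, and these motifs do not overlap in letters. Of the 23 tested genes 15 had a promoter in the table, and all 15 held CCAAT, against 41.1% of 27025 genes with a promoter. TCACNCCAC was in 0 of the 15 and in 1.44% of all these genes. These matches describe the letters of the windows only.

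Fat absorption genes were lower in value for 16 of 18 tested genes, with a median of -0.23 that was -0.41 without AKO replicate 2 and -0.06 without AKO replicate 3. None was called and 2 lay below WT without overlap (11.1% against 4.84%), Apoa4 and Plin3, or 1 with quantile or total read scaling. Plin3 coats lipid droplets. Plin3 was at 365, 290.2 and 311 in WT and at 258, 268 and 278 in AKO. Creb3l3, a factor that controls Apoa4 and other lipid genes in enterocytes, overlapped. Creb3l3 was at 185, 142 and 91.6 in WT and at 66.0, 157 and 63.5 in AKO. AKO replicate 2 lay with WT and the other AKO libraries lay below all 3 WT libraries. Fabp2, the intestinal fatty acid binding protein, showed the same libraries apart. Fabp2 was at 4053, 5131 and 4528 in WT and at 2704, 7405 and 2835 in AKO. In AKO replicate 2 the summed value of the list was the highest of the 6 libraries, at 21310, against 10185 and 10310 in AKO replicates 1 and 3 and 14233 to 16596 in WT. The ileal gene Fabp6, a bile acid binding protein, was likewise highest in AKO replicate 2. Fabp6 was at 11015, 8326 and 6109 in WT and at 4225, 13330.0 and 5422 in AKO. Fgf15, an ileal hormone, was at 28.5, 20.9 and 5.09 in WT and 3.19, 39.9 and 2.98 in AKO. The summed value of 6 proximal and distal gut genes, most of it Fabp6, was 14384 in AKO replicate 2 and 5007 to 11858 in the others. The median of these 6 genes was -0.01 (range -0.15 to 0.08). The part of gut region in the lipid values was not tested.

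Villus tip genes had 4 of 12 without overlap below WT (33.3% against 4.84%), or 2 with quantile scaling. Nt5e, the ectonucleotidase CD73, was one of them. Nt5e was at 32.5, 25.3 and 38.5 in WT and at 16.9, 22.6 and 23.3 in AKO. Krt20, a keratin of mature enterocytes, was another, at -0.27 ± 0.14, and Pmp22 and Apoa4 were the others. Brush border hydrolases (15), microvillus genes (16) and nutrient transporters (19) had 0 without overlap and medians of -0.06 (range -0.23 to 0.07), -0.06 (-0.22 to -0.01) and -0.04 (-0.17 to 0.00). Without AKO replicate 2 these were -0.19, -0.18 and -0.17. Vil1, encoding villin, whose promoter drives the Cre, was at -0.16 ± 0.14, and the glucose transporter Slc5a1 at -0.22 ± 0.16. Cytochrome P450 and phase II genes had 18 of 22 higher in value, a median of 0.15 (range 0.11 to 0.29) and 0 without overlap. Cyp2c55 stood out for its spread. Cyp2c55 was at 139, 131 and 84.1 in WT and at 404, 274 and 81.6 in AKO. AKO replicates 1 and 2 were high and AKO replicate 3 lay below WT.

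Some immune genes lay lower in value. Of 19 MHC class II and interferon gamma genes 5 were below WT without overlap (26.3% against 4.84%) and 0 called. Cd74, the invariant chain, was at -0.29 ± 0.14, and the class II chain H2-Eb1 at -0.27 ± 0.10. H2-DMb1 is the partner of H2-DMa. H2-DMb1 was at 183, 152 and 174 in WT and at 133, 148 and 139 in AKO. The list median was -0.22, but -0.02 without AKO replicate 2. Duoxa2, which matures the epithelial oxidase Duox2, was below WT without overlap. It was the 1 such gene of 12 antimicrobial and Reg genes (8.33% against 4.84%), or 0 with total read scaling. The median of those 12 genes was -0.10 (range -0.31 to 0.01). Duoxa2 was at 106, 84.6 and 104 in WT and at 40.4, 45.4 and 81.3 in AKO. AKO replicates 1 and 2 held far less than WT and AKO replicate 3 came close to it. Duox2 overlapped, at -0.52 ± 0.24.

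Of 20 Toll-like receptor and inflammatory genes 3 were below WT without overlap (15% against 4.84%) and 1 above (5% against 3.67%). These were 2 and 0 with quantile scaling and 2 and 2 with total reads. Nfkbia, the NF-kappaB inhibitor, was one. Nfkbia was at 81.6, 99.0 and 97.8 in WT and at 67.5, 73.3 and 75.4 in AKO. Tnfaip3 (A20), which also restrains NF-kappaB, was another. Tnfaip3 was at 51.3, 47.1 and 55.9 in WT and at 36.3, 39.3 and 41.7 in AKO. The chemokine Ccl20 was the last, at -0.93 ± 0.38. The 1 above was Ptgs2, the inducible cyclooxygenase, at 0.41 ± 0.18. Zfp36 and Ier2 were the 2 of 18 immediate early and heat shock genes below WT without overlap (11.1% against 4.84%, and 1 with total reads), with Ier2 at -0.21 ± 0.09. Type I interferon (20), unfolded protein response (20), lysosome (20), autophagy (20), junction (21), circadian (18), PPARA (17), YAP and fetal-like (15) and EGFR (8) genes had 0 called, with medians from -0.14 to 0.17. Of these the lysosome list had 3 genes below WT without overlap (15% against 4.84%), or 1 with quantile or total read scaling, and the autophagy list 2 above (10% against 3.67%). The unfolded protein response list had 1 below (5% against 4.84%), or 0 with quantile or total read scaling. The interferon, junction and circadian lists had 1 above each (5%, 4.76% and 5.56% against 3.67%), and the PPARA, YAP and EGFR lists 0. The junction list had 3 above with quantile or total read scaling. With total reads it also had 1 below, the circadian list had 2 above and the YAP list 1 above. The highest of the medians, that of the EGFR genes, ran from 0.0049 to 0.21. Among these, Ereg, an EGFR ligand, was at 0.39 ± 0.19 and the receptor Erbb3 at 0.19 ± 0.10.

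**Figure D5:**
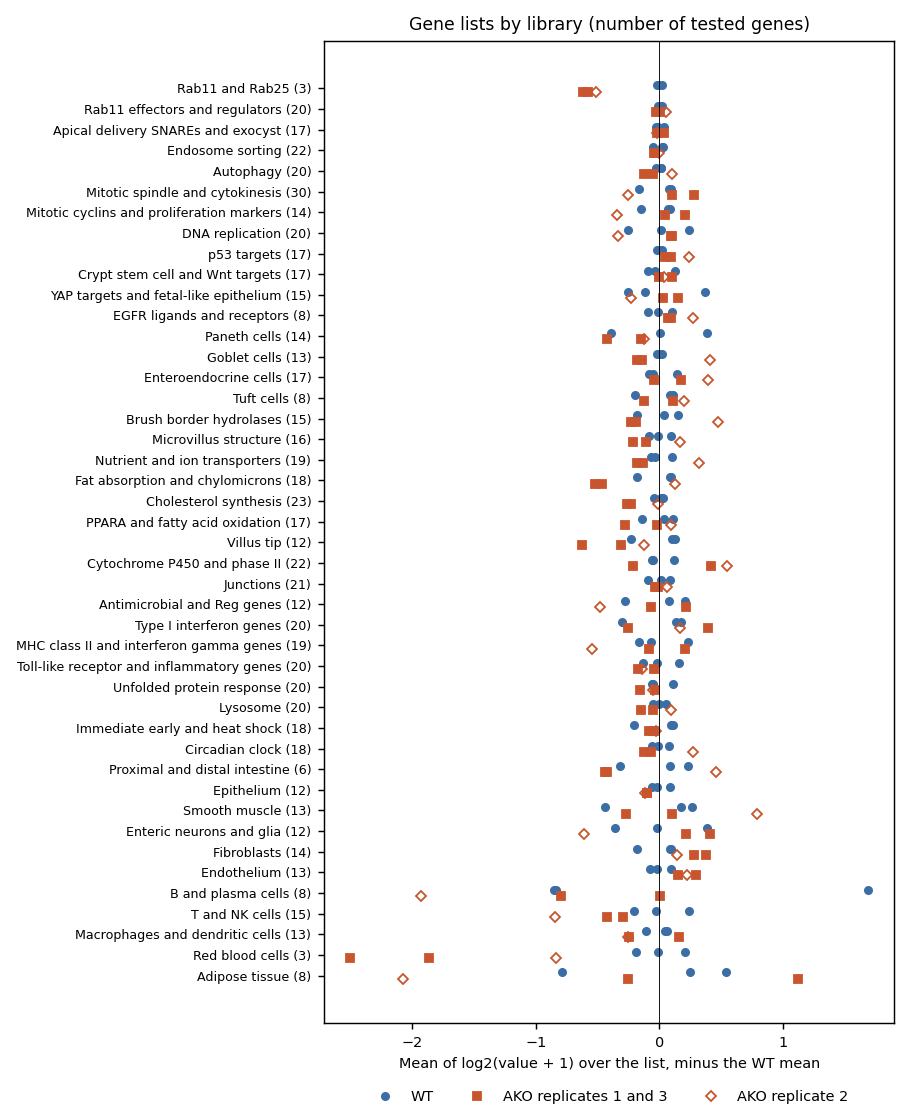
Mean log2(value + 1) over the tested genes of each list in each library, minus the WT mean of the list, with WT as blue circles, AKO replicates 1 and 3 as filled squares and AKO replicate 2 as open diamonds, and the number of tested genes after each name. AKO replicate 2 stands away from the other AKO libraries for fat absorption (0.13 against -0.46 and -0.52), smooth muscle and spindle genes, and WT replicate 2 stands away for B and plasma cells (1.69).

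Markers of the cells in the lysate also moved with the libraries, and 0 were called in any list. Epithelial markers were abundant, with none at 0, and their summed value was 24590 to 27400 in WT and 22757 to 23024 in AKO, with 9 of 12 lower in value and 2 below WT without overlap (16.7% against 4.84%), Krt8 and Krt20. The homeobox gene Cdx2 was the 1 above (8.33% against 3.67%). The count below was 0 with quantile scaling and 4 with total reads. Fibroblast genes had 6 of 14 above WT without overlap (42.9% against 3.67%) and a median of 0.39. Col6a2 encodes a collagen VI chain and Dpt the matrix protein dermatopontin. Col6a2 was at 37.0, 23.9 and 37.2 in WT and at 45.9, 42.3 and 53.4 in AKO. Dpt was at 20.3, 13.6 and 22.0 in WT and at 27.4, 28.9 and 24.99 in AKO. Both were lowest in WT replicate 2, and Pdgfra, a receptor of stromal cells, was at 0.38 ± 0.14. The summed fibroblast value was 676 to 776 in WT and 779 to 882 in AKO. With values scaled by total reads 4 of the 14 were without overlap.

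Endothelial genes had 3 of 13 above WT without overlap (23.1% against 3.67%) and a median of 0.30 (range 0.13 to 0.40). Tek is the angiopoietin receptor and Lyve1 a lymphatic hyaluronan receptor. Tek was at 2.32, 2.27 and 3.04 in WT and at 4.19, 3.62 and 4.12 in AKO. Lyve1 was at 11.3, 13.1 and 15.7 in WT and at 16.6, 21.1 and 18.3 in AKO. Both were higher in value in each AKO library, as was Ccl21a above. The summed endothelial value was 78.3 to 91.5 in WT and 93.4 to 101 in AKO.

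T and NK cell genes were lower in value for 15 of 15, with 6 below WT without overlap (40.0% against 4.84%) and a median of -0.53. Cd3g and Cd3d encode chains of the T cell receptor complex and Gzma a cytotoxic granule protease. Cd3g was at 18.1, 21.8 and 19.4 in WT and at 13.2, 11.4 and 15.7 in AKO. Cd3d was at 8.28, 13.5 and 11.2 in WT and at 6.35, 6.81 and 6.49 in AKO. Gzma was at 116, 106 and 141 in WT and at 66.8, 69.9 and 111 in AKO. Gzma overlapped while the CD3 chains did not, and WT replicate 2 held the most Cd3g and Cd3d. Gzmb was at -0.34 ± 0.10. The summed value was 369 to 556 in WT and 228 to 352 in AKO, 2 genes were without overlap when values were scaled by total reads, and the median was -0.25 without both replicates 2.

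B and plasma cell genes varied most with WT replicate 2. Cd79a is a chain of the B cell receptor. Cd79a was at 14.7, 141 and 12.5 in WT and at 23.6, 3.50 and 10.9 in AKO. WT replicate 2 stood far above all other libraries, and the list median of -0.96 became 0.37 without both replicates 2. Mzb1, a plasma cell chaperone, was the 1 of 8 below WT without overlap (12.5% against 4.84%), or 0 with total read scaling. Mzb1 was at 26.7, 37.5 and 29.7 in WT and at 17.8, 7.63 and 26.5 in AKO. The joining chain Igj was at -0.44 ± 0.35. Macrophage and dendritic cell genes (13) had a median of -0.18 (range -0.33 to 0.05) and 0 without overlap, with the complement gene C1qa at -0.35 ± 0.16. Smooth muscle genes were higher in value for 13 of 13 with 0 without overlap, and AKO replicate 2 was the highest library (summed value 4841 against 2044 to 3349 in the others). The smooth muscle median of 0.20 became -0.05 without AKO replicate 2, -0.01 without WT replicate 2 and 0.42 without AKO replicate 1. Adipose genes (8) had a median of -0.42, or 0.53 without AKO replicate 2 and -1.33 without AKO replicate 1, with 0 without overlap, and neuron and glia genes (12) one of 0.04 (range -0.22 to 0.33). Of the pancreas list 2 genes were tested, at a median of -0.21, and of neutrophils, eosinophils and mast cells 1 gene, Kit, at 0.20 ± 0.11. Kit lay above WT without overlap, but not with quantile scaling. S100a8, Mpo, Elane and Epx were at 0 in all 6 libraries. The part of these cell type differences in the other gene groups was not tested.

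The Rab11a deletion was also set against the same deletion in mice without Rab11b, as the difference (DKO minus BKO) minus (AKO minus WT) in limma over all 12 libraries. It was called for 541 of 13675 genes (3.96%), with 284 higher (2.08%) and 257 lower (1.88%), a number that came to 4181 without BKO replicate 3 and to between 94 and 311 without any 1 of the other 11 libraries. Xist was at 201, 254 and 0.220 in BKO and at 205, 144.5 and 342 in DKO, so Xist state was not balanced in this difference. The part of Xist state in these calls was not tested. For Rab11a itself the difference was 0.54 ± 0.21 (SE, limma adjusted p = 0.145), and without BKO replicate 3 it was 0.67 (adjusted p = 0.0157). Rab11b and Rab25 were not called (adjusted p = 0.579 and 0.681). Ddit4, lower in value in AKO, was at 24.3, 23.3 and 43.3 in BKO and 118, 88.3 and 114 in DKO, so every DKO library exceeded every BKO library, and the difference of 2.58 ± 0.33 was called (limma, adjusted p = 0.00717). Ppapdc2 had log2 changes of -0.95 without and -0.70 with loss of Rab11b, a difference of 0.24 ± 0.33 (limma, adjusted p = 0.675). For Mvd they were -0.36 and -0.37, a difference of -0.01 ± 0.17 (limma, adjusted p = 0.974).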

How the data were processed

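RNA of whole jejunum was made into libraries with the TruSeq RNA v2 kit, per the labels' protocols. The kit does not mark strand, so reads of overlapping genes on opposite strands cannot be told apart. The authors deposited 1 table of 23988 genes with a signal value per gene and library (fpm), which is a count of reads scaled by a size factor. FastQC 0.11.3, Trimmomatic 0.36, DESeq2 and the genome build mm9 are named in the submitters' processing notes, per the labels. The name under which the values were deposited includes HISAT2, an aligner. Which counter and annotation were used is not given in the sources used here. Dividing each library by its smallest step gave whole reads for 100% of its values, to within 0.001 reads, and count tests ran on these reads.

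The 6 libraries of WT and AKO were fitted in limma 3.58.1 (R 4.3.3) with a trended prior on log2(value + 1), with Benjamini-Hochberg adjustment over 13133 genes. edgeR 4.0.16 (quasi-likelihood) and DESeq2 1.42.0 were alternatives on the recovered reads. Others were pseudocounts of 0.1 and 5, other filters and scalings, quality weights, other libraries in the fit and each library left out. Leaving out both replicates 2 together and a term for Xist were added after the data were seen. The limma test was tested on simulated data. Replicate numbers did not pair the samples (correlations of deviations -0.30, -0.26 and -0.01).

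The comparison, the 48 gene lists (776 genes, 679 of them tested) and the tests were chosen with earlier results of these data known. The 18 mitochondrially encoded genes listed were not in the table. Named genes were Rab11a, Rab11b and Rab25, then up to 10 per direction by call or else by smallest p among genes whose groups did not overlap and whose higher group averaged 2 or more, and in each list the 3 smallest p and the highest mean. Genes given with a count of 5 or fewer, Pik3c2g, Tmem92 and Srebf2, the other cholesterol genes and the genes under other observations were picked after their values were seen.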

Additional observations from a re-analysis of the deposited data

Results flagged for a closer look

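The Rab11a deletion differed between mice with and without Rab11b for 5 of the genes named in AKO against WT. These 5 came from Rab11a, Rab11b, Rab25 and the genes named by rule, 10 per direction with Rab11a among the lower ones. Over all genes 541 of 13675 were called (3.96%), by limma's test of the difference (DKO minus BKO) minus (AKO minus WT). The difference was -0.85 for Ptprg (adjusted p = 0.0189), -1.34 for Deptor (0.0244), -1.74 for Slc16a10 (0.0189), 1.10 for Zfp36 (0.0206) and 2.58 for Ddit4 (0.00717). The named genes were chosen for their AKO against WT values, which enter that difference with a minus sign, so the choice itself favoured calls. Xist state was not balanced in this difference either, as given above. In mice without Rab11b the log2 changes were -0.42, -0.91, -1.24, 0.47 and 1.83 in the same order, each opposite in sign to the change in AKO. Slc16a10 was at 67.4, 105 and 53.1 in BKO and at 27.2, 35.3 and 28.3 in DKO, without overlap. Ddit4 stayed called with each of the 12 libraries left out. The call was lost for Ptprg without WT replicate 1 or 3 or DKO replicate 2, for Slc16a10 without WT replicate 1 or 3 or AKO replicate 1, for Zfp36 without any 1 WT library, AKO replicate 2 or BKO replicate 1, and for Deptor without any 1 library of WT or AKO, BKO replicate 1 or 2 or DKO replicate 2 (adjusted p = 0.0501 to 0.0694).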

How the results depend on the processing

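Limma called 1 gene, and that number was 0 without a filter on low values, 2 with sample quality weights, 7 in DESeq2, 10 without both replicates 2, 0 with a term for Xist and 0 to 3 with 1 library left out. With the replicate number as a replicate block it was also 0, with Rab11a at -1.64 (adjusted p = 0.444). The numbers share no source in the labels, and 0 same-numbered samples correlated above 0. Rab11a was uncalled in limma without the filter (adjusted p = 0.0910) and with the Xist term (0.0851). Neither setting can alter its log2 change of -1.64, which was -1.74 to -1.51 with 1 library left out. Rab11a was called in 15 of 22 fits.

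Genes without overlap numbered 782 above and 305 below when scaled by total reads, and 5312 intervals lay within -0.5 to 0.5 with all 12 libraries in the fit. The difference between the deletion with and without Rab11b was called for 4181 genes without BKO replicate 3, 329 with the replicate block and 94 to 4181 with 1 library left out.

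The sign turned for Rab25 (0.0014 with median-of-ratios scaling, 0.0080 with quantile scaling, 0.034 with total reads, 0.0068 and 0.0054 in edgeR with and without its filter, and -0.069 to 0.028 with 1 library left out). It also turned for Fabp2 (-0.72 to 0.010) and Fabp6 (-0.78 to 0.044) with 1 library left out, positive without AKO replicate 1, and for Cd79a (0.23) without both replicates 2. Over the 47 lists with a tested gene and the 22 settings, a list median kept within 1 SD of its main value 979 times and moved by more 55 times. Some settings cannot move a median, among them the replicate block, the Xist term and the fit with all 12 libraries, so the 979 is partly fixed in advance. The cause of the moves was not tested. Low genes are limited by depth: the median distance from estimate to interval end was 0.50 under a mean of 2.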

Other observations

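The largest log2 changes in size, those of Rps27rt and Rps27, belonged to gene copies with overlap between the groups. Rps27 was at 1.18, 1.10 and 1.21 in WT and at 282, 1.13 and 286 in AKO, and its retrogene Rps27rt at 351, 414 and 371 in WT and at 0.344, 540.2 and 1.01 in AKO. The sum of the pair was 352, 416 and 372 in WT and 282, 541 and 287 in AKO, so that 1 copy held nearly all reads in each library. The same was seen for Atp6v0c, a subunit of the proton pump, and the pseudogene Atp6v0c-ps2: the first was at 126, 2.12 and 142 in WT and at 2.69, 134 and 2.59 in AKO, and the sum was 126, 132 and 142 in WT and 135, 134 and 113 in AKO. In the other groups Rps27 was high in DKO replicate 3 alone, at 520.0, and Rps27rt was at 296 to 361 in the other 5 libraries. Values for single members of such pairs are uncertain.

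In all, 19 tested genes had their 6 libraries in a high and a low set of at least 2 libraries each, with a gap of at least 2 on the log2 scale and a spread of at most 1 within each set. The high and low sets were of 10 kinds. The Y-linked genes Ddx3y, Eif2s3y, Kdm5d and Uty shared 1 of them, and Gm5148 shared that of Atp6v0c. St6galnac6, a sialyltransferase, was at 57.6, 5.74 and 5.47 in WT and at 63.3, 7.12 and 83.0 in AKO. Defa4, a Paneth cell defensin with near-identical copies, was at 0.0815, 35.0 and 0.104 in WT and at 0.125, 19.4 and 22.3 in AKO. Other genes were missing from 1 library: Kctd12 was at 0 in AKO replicate 2 and at 86.5 to 112 in the other 5, and Zbed5 was at 0.263 in AKO replicate 3 and at 66.1 to 93.4 in the others. The cause of these patterns was not tested.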
